A study of Homo sapiens with 6 samples.

Results

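Expression of the gelatinases MMP2 and MMP9, the membrane-type matrix metalloproteinases MMP14, MMP15, MMP16 and MMP17, the tissue inhibitors TIMP1, TIMP2 and TIMP3, and RECK was examined in MDA-MB-231 cells. The members were named as a family of enzymes and inhibitors, and every probe set annotated to exactly 1 of these symbols was taken, which gave 29 of 54613 probe sets and 10 of 19775 genes. MDA-MB-231 is an established human breast cancer cell line that lacks the oestrogen receptor and is widely used to study invasion. Per the labels, the control group is 3 arrays of cells transfected with a control vector, and the HS3ST2 group is 3 arrays of cells transfected with a plasmid for HS3ST2, a heparan sulfate 3-O-sulfotransferase. The replicates are described as independent. All 6 arrays share the cell line, and no other agent or genotype is given in the labels. The interval from transfection to harvest, any selection or cloning, and the number of transfections behind the replicates are not stated in the labels, so p-values measure the spread between these arrays.

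Matrix metalloproteinases are zinc enzymes made as inactive proenzymes. MMP2 and MMP9 degrade gelatin and type IV collagen of basement membranes, while MMP14, MMP15 and MMP16 are anchored to the cell membrane by a transmembrane segment and MMP17 by a lipid anchor. Between them, though not each TIMP for each enzyme, TIMPs block the active sites of these enzymes. TIMP2 also has a second role, since it bridges pro-MMP2 to MMP14 at the cell surface so that a neighbouring MMP14 molecule can cut it. TIMP3 is the TIMP that is held in the extracellular matrix through heparan sulfate and other sulfated glycans, and RECK is a membrane-anchored inhibitor of several of these proteases.

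Every value is a log2 signal relative to the median of that probe set over the 6 arrays, so the levels of different genes cannot be set against each other, and it cannot be said which members lie near background. For the same reason the cell line could not be checked against its defining markers by level. The arrays of a group differed from each other by a median of 0.1 to 0.122 log2 over 54613 probe sets, and arrays of different groups by 0.16 to 0.193. The single probe set of HS3ST2 differed by 0.11 ± 0.10 log2 (SE, n = 3 per group; limma adjusted p 0.523). It is not known here whether this probe set reads the plasmid's transcript, so it does not check the labels, and the treated arrays are called HS3ST2-labelled. The median of 6 ribosomal RNA control probe sets was 0.02, 0.16 and 0.74 in HS3ST2-labelled replicates 1, 2 and 3 and -0.29 to -0.06 in the control arrays (p = 0.1 by a two-sided exact permutation test, which can give no smaller p with 3 arrays a group). Over all genes 24.5% were called in this comparison, 11.5% higher and 13.0% lower. Of 10 luminal epithelial markers 4 were called higher and none lower, with a mean over the list of -0.33 to -0.23 in control and 0.21 to 0.29 in HS3ST2-labelled arrays. Those called were TFF1 (3.04 log2), AGR2 (0.85), CDH1 (0.42) and KRT18 (0.26). TFF1 weighs heavily in that mean, and the median difference of the list was 0.17. Of 9 leukocyte markers 3 were called higher, ITGB2 (1.11), LCP1 (0.78) and CORO1A (0.37), and 1 lower, LAPTM5 (-0.59). The list mean was -0.13 to -0.07 in control and 0.08 to 0.18 in HS3ST2-labelled arrays, and the median difference was 0.14. None of 10 fibroblast markers was called (list mean -0.05 to 0.06 against -0.003 to 0.004). The part of these differences in the results below was not tested.

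Of the 4 inhibitors TIMP3 rose, TIMP2 fell, and TIMP1 and RECK did not pass, while neither gelatinase changed detectably. TIMP3 was higher in the HS3ST2-labelled arrays by 1.02 ± 0.06 log2 (SE, n = 3 per group), a 2.03-fold difference, and TIMP2 was lower by a smaller amount (-0.28 ± 0.06). These 2 of 10 genes were the ones with a limma p under 0.05 after Benjamini-Hochberg adjustment, in a comparison in which 24.5% of all genes were called, 11.5% higher and 13.0% lower. The remaining 8 genes did not pass. Among their probe sets 5 of 29 were called, 4 higher and 1 lower, against 16.9% of all probe sets. The median size of a member's difference was 0.16 log2, against 0.11 over all genes, and the groups did not overlap for 3 of 10 members, against 40.4% of all genes. By number of calls the family therefore lay near the background of this comparison, and TIMP3 ranked 182 of 19775 genes by the size of its difference.

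**Figure D1:**
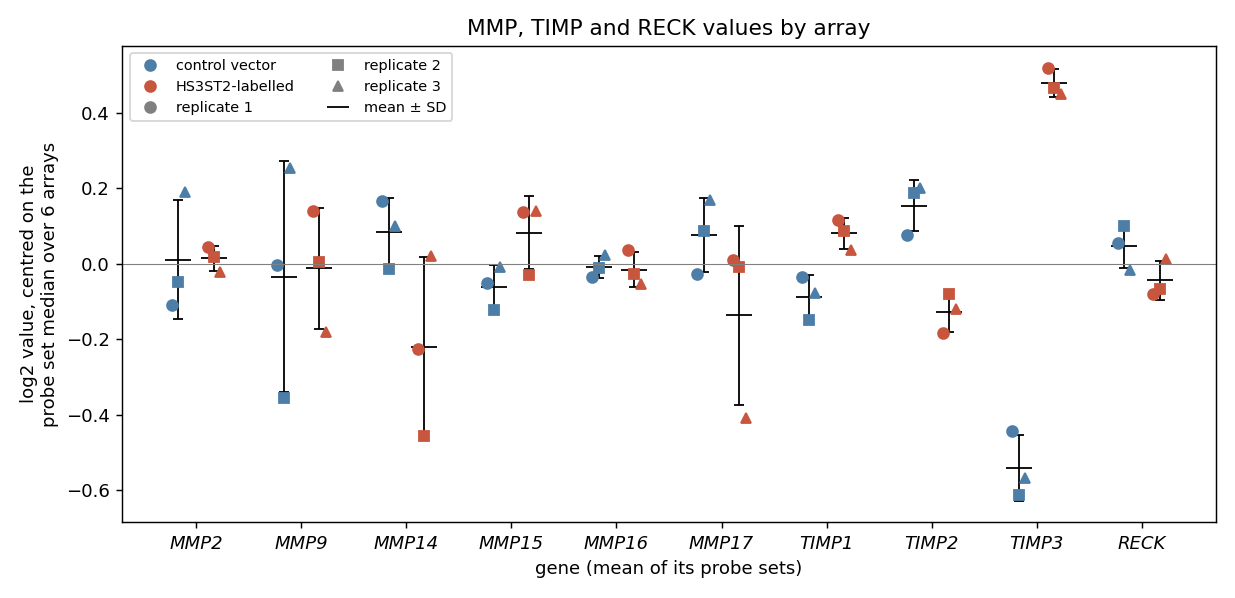
Centred log2 values (vertical axis) of the 10 genes (horizontal axis), each the mean of the gene's probe sets, in 3 control vector and 3 HS3ST2-labelled arrays, with group mean and SD. The groups stand apart for TIMP3, TIMP2 and TIMP1, while for MMP14 HS3ST2-labelled replicate 3 (0.02) lies among the control arrays.

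TIMP3 was the member with the clearest difference. Its values were -0.44, -0.61 and -0.57 in control replicates 1, 2 and 3 and 0.52, 0.47 and 0.45 in HS3ST2-labelled replicates 1, 2 and 3. Every control array lay below every HS3ST2-labelled array, and the gap between the groups was larger than the spread within either (limma adjusted p 2.94e-05, 95% interval 0.88 to 1.16). Each of its 4 probe sets was called higher, at 1.22 ± 0.07 for 201150_s_at, 1.03 ± 0.07 for 201147_s_at, 0.98 ± 0.10 for 201148_s_at and 0.85 ± 0.10 for 201149_s_at. In each of them the groups did not overlap, whereas over all probe sets 34.1% did not overlap and 16.9% were called, 7.90% higher and 8.98% lower. All 4 end in _s_at, the array maker's mark for probes that can match more than 1 transcript, so TIMP3 had no value once such probe sets were left out. SYN3, the synapsin gene that overlaps TIMP3 in the RefSeq annotation, did not pass (-0.05 ± 0.05, adjusted p 0.582).

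The bases before the start of TIMP3, TIMP1 and MMP14 are shown because these genes gave a clear rise, a small positive difference and a negative difference, the last 2 not called. They come from RefSeq's table on build GRCh38.p14, which held windows for 5 of the 10 members. Each run gives the 250 bases before the start on the + strand, 5′ to 3′, at chr22:32801455-32801704, chrX:47582186-47582435 and chr14:22836335-22836584. Capitals mark GGGCGG on either strand, the GC box bound by SP1-type factors.
TIMP3: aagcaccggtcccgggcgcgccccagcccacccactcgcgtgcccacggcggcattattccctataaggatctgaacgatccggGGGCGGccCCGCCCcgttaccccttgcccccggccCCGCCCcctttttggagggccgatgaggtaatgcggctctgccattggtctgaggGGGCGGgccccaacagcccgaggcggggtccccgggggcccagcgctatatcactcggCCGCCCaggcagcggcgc
TIMP1: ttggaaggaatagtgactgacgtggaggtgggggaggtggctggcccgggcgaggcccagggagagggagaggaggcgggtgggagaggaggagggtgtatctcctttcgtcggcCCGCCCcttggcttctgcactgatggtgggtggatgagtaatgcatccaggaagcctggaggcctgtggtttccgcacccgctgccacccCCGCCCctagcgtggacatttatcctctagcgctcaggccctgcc
MMP14: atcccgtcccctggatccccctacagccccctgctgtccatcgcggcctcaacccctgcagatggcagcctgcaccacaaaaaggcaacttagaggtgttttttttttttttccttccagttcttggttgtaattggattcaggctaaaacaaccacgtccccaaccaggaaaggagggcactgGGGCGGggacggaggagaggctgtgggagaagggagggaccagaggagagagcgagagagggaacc
The TIMP3 window held 5 such boxes, as did that of MMP15, against 3 for RECK, 2 for TIMP1 and 1 for MMP14. Of 35116 windows of this length, 42.6% held at least 1 box and 4.15% held 5 or more. CpG pairs numbered 26 for TIMP3 and 31 for MMP15, 12 for both TIMP1 and RECK, and 7 for MMP14, against a median of 11 over all windows. At least as many as for TIMP3 were in 19.6% of all windows, and at least as many as for MMP15 in 10.9%. An exact TGANTCA, a consensus site of AP-1 factors, was in none of the 5 windows and in 6.57% of all. Variants of it were not searched, and the TIMP1 window holds tgagtaa, which differs from it in 1 base. MMP15, whose window held as many GC boxes as that of TIMP3, was not called, and TIMP2, the other called member, had no window. A link between GC boxes and the differences was not tested. These matches describe the letters of the windows and are not measured binding sites.

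TIMP2, the inhibitor that also takes part in MMP2 activation, was lower in the HS3ST2-labelled arrays. Its gene values were 0.08, 0.19 and 0.20 in control replicates 1, 2 and 3 and -0.18, -0.08 and -0.12 in HS3ST2-labelled replicates 1, 2 and 3. The groups did not overlap (-0.28 ± 0.06 log2, 95% interval -0.42 to -0.15, limma adjusted p 0.00974). Most of the difference came from 1 of its 3 probe sets. The probe set 203167_at read 0.27, 0.27 and 0.24 in control replicates 1, 2 and 3 and -0.36, -0.24 and -0.31 in HS3ST2-labelled replicates 1, 2 and 3. It was the only TIMP2 probe set called (-0.56 ± 0.06, adjusted p 0.00117). The other two were also negative but did not pass, at -0.19 ± 0.09 for 224560_at (adjusted p 0.234) and -0.10 ± 0.07 for 231579_s_at (adjusted p 0.424). With the probe set of largest SD standing for each gene, TIMP2 was at -0.56. That SD spans both groups, so the choice favours a probe set that differs between them, here 203167_at. Without _x_at and _s_at probe sets TIMP2 was at -0.38, so the size of the fall depends on the probe sets used. CEP295NL, which overlaps TIMP2 in the RefSeq annotation, was not among the genes measured here.

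TIMP1 is a secreted inhibitor of most MMPs that also binds pro-MMP9. Its single probe set read -0.04, -0.15 and -0.08 in control replicates 1, 2 and 3 and 0.12, 0.09 and 0.04 in HS3ST2-labelled replicates 1, 2 and 3. The groups did not overlap, but the gap was narrow, and the difference of 0.17 ± 0.06 log2 did not pass by limma (95% interval 0.04 to 0.30, adjusted p 0.0618). With array weights it passed (0.18, limma adjusted p 0.0483, in a range of 0.0483 to 0.178 over 14 alternatives). These values are from the fit over genes. In the fit over probe sets it did not pass, with a limma adjusted p of 0.138, or 0.113 with array weights. SYN1, the synapsin gene that overlaps TIMP1, was at 0.09 ± 0.07 (adjusted p 0.421).

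RECK gave no call, with 5 probe sets that did not share a direction. Its gene values were 0.05, 0.10 and -0.02 in control replicates 1, 2 and 3 and -0.08, -0.07 and 0.01 in HS3ST2-labelled replicates 1, 2 and 3, which overlap (-0.09 ± 0.06 log2, 95% interval -0.22 to 0.04, limma adjusted p 0.306). The probe set 205407_at read -0.05, -0.13 and -0.09 in control replicates 1, 2 and 3 and 0.05, 0.06 and 0.05 in HS3ST2-labelled replicates 1, 2 and 3. The probe set 1558115_at lay the other way, at 0.17, 0.01 and 0.09 in control replicates 1, 2 and 3 and -0.01, -0.15 and -0.13 in HS3ST2-labelled replicates 1, 2 and 3. Groups did not overlap in either of these probe sets, as in 34.1% of all probe sets, and neither difference passed by limma (0.14 ± 0.06, adjusted p 0.181, and -0.19 ± 0.07, adjusted p 0.138). The mean of the gene thus averages opposite values, and the remaining 3 probe sets were at -0.30, -0.07 and -0.04.

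**Figure D2:**
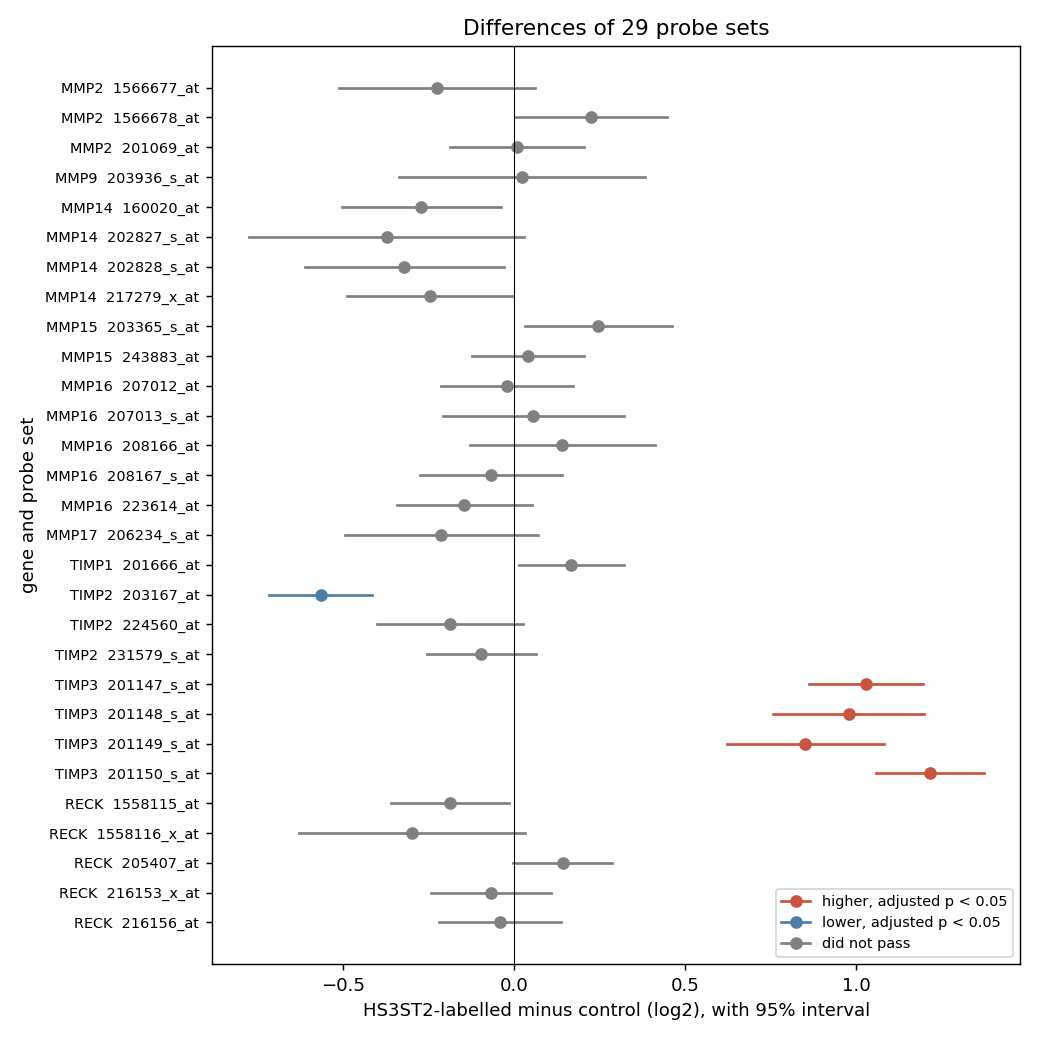
Differences between HS3ST2-labelled and control arrays (horizontal axis, log2, points) with 95% intervals (lines) for the 29 probe sets of the 10 genes (vertical axis), coloured by limma call. All 4 TIMP3 probe sets lie at 0.85 or above, 203167_at of TIMP2 lies at -0.56, and the 4 MMP14 probe sets lie between -0.37 and -0.25 without passing.

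MMP14, the membrane enzyme that activates pro-MMP2 and cleaves fibrillar collagen, had a negative difference with a wide spread between arrays and did not pass. Its gene values were 0.16, -0.02 and 0.10 in control replicates 1, 2 and 3 and -0.22, -0.46 and 0.02 in HS3ST2-labelled replicates 1, 2 and 3. HS3ST2-labelled replicates 1 and 2 lay below every control array, and replicate 3 lay between the control values. The difference was -0.30 ± 0.11 log2 (95% interval -0.57 to -0.04, limma adjusted p 0.0964). All 4 probe sets were negative, from -0.37 for 202827_s_at to -0.25 for 217279_x_at, and none was called. The groups did not overlap in 2 of them, where 34.1% of all probe sets did not overlap. When HS3ST2 replicate 3 was left out, in which the ribosomal RNA signal was highest, MMP14 was at -0.42 and passed (limma adjusted p 0.0189, in a range of 0.0189 to 0.23 over 14 alternatives). Without HS3ST2 replicate 2, which held the lowest value, MMP14 was at -0.19 and did not pass (limma adjusted p 0.23). The call and the size of the difference thus depend on single arrays. The part of the ribosomal RNA signal of replicate 3 was not tested.

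The other membrane-type enzymes did not pass. MMP15, a transmembrane enzyme, was at -0.05, -0.12 and -0.01 in control replicates 1, 2 and 3 and at 0.14, -0.03 and 0.14 in HS3ST2-labelled replicates 1, 2 and 3. The groups overlapped through HS3ST2-labelled replicate 2 (0.14 ± 0.07 log2, 95% interval -0.01 to 0.30, limma adjusted p 0.165). Its probe set 203365_s_at was at 0.25 ± 0.09 and 243883_at at 0.04 ± 0.07, neither called.

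MMP17, the lipid-anchored enzyme, was at -0.03, 0.09 and 0.17 in control replicates 1, 2 and 3 and at 0.01, -0.01 and -0.41 in HS3ST2-labelled replicates 1, 2 and 3. The low value was that of replicate 3 alone, and the other two HS3ST2-labelled arrays lay within the control range. Over the group the difference was -0.21 ± 0.12 log2 (95% interval -0.48 to 0.05, limma adjusted p 0.236), and without HS3ST2 replicate 3 it was -0.08 (limma adjusted p 0.548, in a range of 0.163 to 0.548 over its alternatives).

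MMP16, another transmembrane activator of pro-MMP2, varied little. Its gene values, over 5 probe sets, lay between -0.04 and 0.02 in control arrays and between -0.05 and 0.04 in HS3ST2-labelled arrays, which overlap. The difference was -0.01 ± 0.05 log2, with a 95% interval from -0.13 to 0.11 for the mean of its probe sets. The probe sets ranged from -0.15 to 0.14, with 2 positive and 3 negative. Taking the probe set of largest SD put the gene at 0.14.

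Neither gelatinase changed detectably, but the precision differed. MMP2, which degrades type IV collagen once activated, was at -0.11, -0.05 and 0.19 in control replicates 1, 2 and 3 and at 0.04, 0.02 and -0.02 in HS3ST2-labelled replicates 1, 2 and 3. All HS3ST2-labelled values lay inside the control range (0.003 ± 0.08 log2, limma adjusted p 0.986). The near-zero mean hides opposite values in 2 of its 3 probe sets, since 1566678_at was at 0.23 ± 0.10 and 1566677_at at -0.23 ± 0.12, neither called (adjusted p 0.167 and 0.285), while 201069_at was at 0.01 ± 0.08.

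MMP9, the gelatinase that leukocytes and many tumours release, had 1 probe set, which read -0.005, -0.36 and 0.25 in control replicates 1, 2 and 3 and 0.14, 0.005 and -0.18 in HS3ST2-labelled replicates 1, 2 and 3. The control arrays alone spanned the whole range. The difference was 0.02 ± 0.15 log2 (limma adjusted p 0.938). Its 95% interval from -0.32 to 0.37 is the widest of the 10 genes, so a change of the size seen for TIMP2 would not have been detectable.

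Differences between pairs of members were set against each other within each array, where a shift shared by all probe sets of an array cancels. These 6 contrasts, 3 between genes and 3 between probe sets of a gene, were chosen after the values were seen, and the smallest exact p that 3 against 3 arrays allow is 0.1. TIMP3 minus TIMP2 went from -0.69 ± 0.15 (SD, n = 3) in control to 0.61 ± 0.09 in HS3ST2-labelled arrays, a shift of 1.30 log2 (two-sided exact permutation p = 0.1, 0.12 adjusted over the 6 contrasts). TIMP3 minus TIMP1 went from -0.45 ± 0.04 to 0.40 ± 0.02, a shift of 0.85 (exact permutation p = 0.1, 0.12 adjusted). Every HS3ST2-labelled array lay above every control array in both pairs. TIMP2 minus MMP14, the pair whose balance governs pro-MMP2 activation at the cell surface, was 0.07 ± 0.15 in control arrays and 0.09 ± 0.26 in those labelled HS3ST2 (exact permutation p = 1), with overlapping values and a shift of 0.02 ± 0.17 (SE). TIMP2 is here the mean of probe sets at -0.56, -0.19 and -0.10 log2, and MMP14 was at -0.30. The shift thus depends on the TIMP2 probe set used, and the balance of the proteins was not measured.

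**Figure D3:**
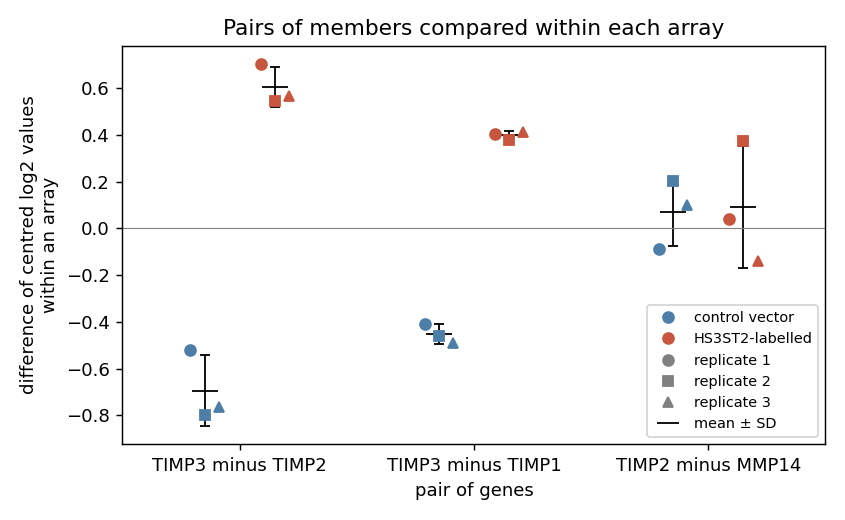
Difference of the centred log2 values of 2 genes within each array (vertical axis) for 3 pairs (horizontal axis), with group mean and SD. TIMP3 is shifted against TIMP2 and TIMP1 in all 3 HS3ST2-labelled arrays, whereas TIMP2 minus MMP14 overlaps between the groups.

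Probe sets of 1 gene were contrasted in the same way. The TIMP2 probe set 203167_at minus the mean of the other two shifted by -0.42 ± 0.07 log2 (SE), 205407_at of RECK against its other probe sets by 0.29 ± 0.07, and 1566678_at minus 1566677_at of MMP2 by 0.45 ± 0.17. In each of these 3 contrasts the groups did not overlap, with an exact permutation p of 0.1 (two-sided, n = 3 per group, 0.12 adjusted). The probe sets were picked by their own group difference, the lowest for TIMP2, the highest for RECK and the highest against the lowest for MMP2. That choice favours a separation, so these p-values are no independent support. Which transcripts each probe set reads was not examined here.

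Among the secreted MMPs outside the family, 14 genes were measured, of which 4 rose and 1 fell, with a median difference of 0.12 log2 against 0.01 over all genes, of which 24.5% were called. MMP13 and MMP1, both collagenases, were higher by 2.14 ± 0.11 and 1.61 ± 0.07 log2 (SE), MMP19 rose by 0.67 ± 0.07 and MMP28 by 0.38 ± 0.06. The stromelysin MMP10 fell by 0.65 ± 0.12 on the log2 scale, and it is named after its value was known. The membrane-bound MMP24 and MMP25 and the remaining inhibitor TIMP4 were at -0.14, -0.12 and -0.05, and none was called.

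Of 18 genes for activation, docking and clearance of these enzymes, 5 rose, 5 fell and 8 did not pass, where 24.5% of all genes were called, 11.5% higher and 13.0% lower. The list's median was 0.02. PCSK5, a proprotein convertase, rose by 1.26 ± 0.10 log2 (SE), and THBS2, a matrix glycoprotein that promotes uptake of MMP2, rose by 2.72 ± 0.18. LCN2, which binds MMP9 and protects it from degradation, fell by 1.33 ± 0.07, and CD44, the hyaluronan receptor that docks MMP9 and MMP14, fell by 0.59 ± 0.05. FURIN, the convertase that activates MMP14, rose by 0.32 ± 0.08 (limma adjusted p 0.0261) and is named after its value was known. The number that rose was 3 when replicate 1 or 2 of the control arrays, or replicate 2 or 3 of the HS3ST2-labelled arrays, was left out.

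Of 14 measured matrix substrates, 2 rose, 4 fell and 8 gave no call (median -0.11), against 11.5% higher and 13.0% lower among all genes. FN1, fibronectin, rose by 0.46 ± 0.06 log2 (SE). The type IV collagen chains did not share a direction. COL4A5, COL4A4 and COL4A1 fell by 0.65 ± 0.06, 0.35 ± 0.07 and 0.25 ± 0.05, COL4A2 rose by 0.20 ± 0.05 (limma adjusted p 0.0329), and COL4A3 (-0.12 ± 0.05) and COL4A6 (-0.02 ± 0.06) did not pass. Only 1 substrate was higher when any 1 array other than HS3ST2 replicate 2 was left out, and none of 13 was without _x_at and _s_at probe sets. With the probe set of largest SD, 7 were lower.

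Of 9 ADAM and ADAMTS proteases inhibited by TIMPs such as TIMP3 or related to those that are, 1 rose, 2 fell and 6 did not pass (median -0.04), near the 24.5% called among all genes. ADAMTS1 fell by 1.30 ± 0.06 log2 (SE), the aggrecanase ADAMTS5 fell by 0.38 ± 0.05, and the sheddase ADAM10 rose by 0.26 ± 0.06. ADAM17, the sheddase of TNF that TIMP3 inhibits, was at 0.04 ± 0.05 (adjusted p 0.68). Without _x_at and _s_at probe sets, 1 of 7 fell.

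Among 13 measured genes of invadopodia, the protrusions where MMP14 is concentrated, 1 rose and 3 fell (median -0.08), close to the share of 24.5% called over all genes. The small GTPase gene CDC42 fell by 0.30 ± 0.06 log2 (SE), the myosin gene MYO10 by 0.23 ± 0.06 and ACTR3, an Arp2/3 subunit, by 0.17 ± 0.05, while VAMP7, a vesicle fusion protein, rose by 0.21 ± 0.05, a call that was lost when control replicate 2, or either of HS3ST2 replicates 2 and 3, was left out. Only 1 of the 3 falls was called without any 1 of the HS3ST2-labelled arrays or without _x_at and _s_at probe sets, and 5 were with the probe set of largest SD. Of 18 transcription factors that act on promoters of MMP and TIMP genes, none rose and 4 fell (median -0.08), also near the 24.5% called over all genes. The AP-1 subunit FOSL2 fell by 0.42 ± 0.06, ETS1 by 0.23 ± 0.06, KLF6 by 0.20 ± 0.05 and ETS2 by 0.20 ± 0.06. The count was 1 or 2 when any 1 array other than HS3ST2 replicate 3 was left out, and 2 without _x_at and _s_at probe sets or with the probe set of largest SD.

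**Figure D4:**
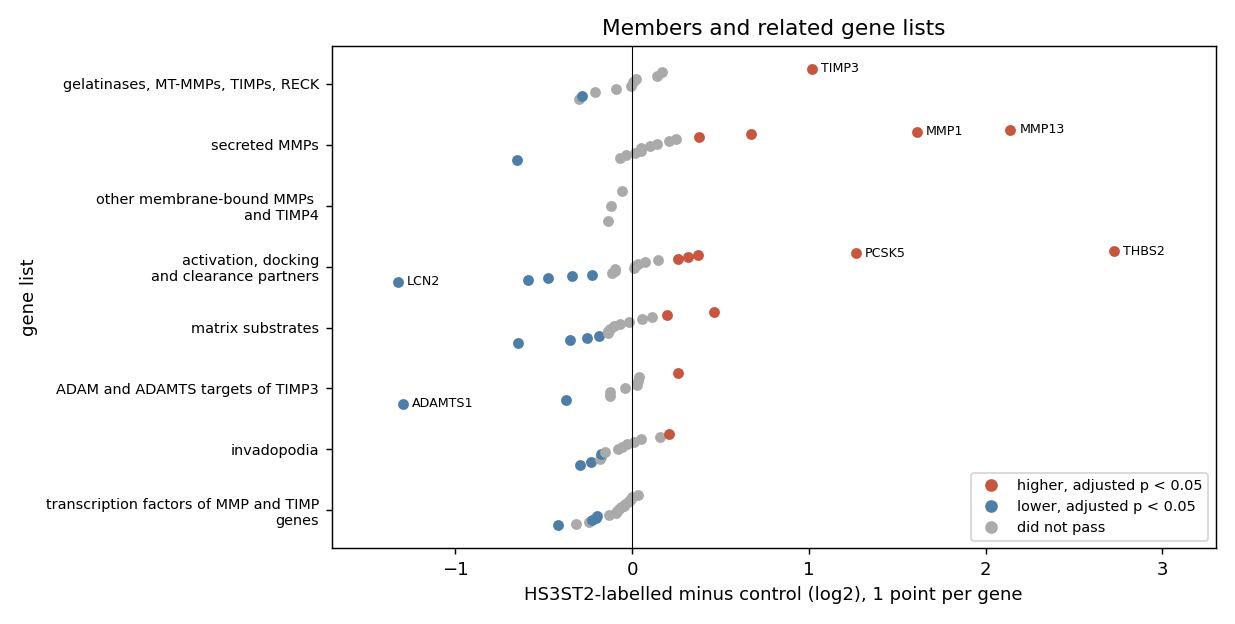
Differences between HS3ST2-labelled and control arrays (horizontal axis, log2, 1 point per gene) for the 10 members and 7 related gene lists (vertical axis), coloured by limma call. TIMP3 at 1.02 stands apart from the other members. Further out in their lists lie MMP13, MMP1, PCSK5 and THBS2 on the higher side and LCN2 and ADAMTS1 on the lower side.

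The genes whose values over the 6 arrays were closest to those of TIMP3, by Euclidean distance, were RAB27B, a GTPase of secretory vesicles, SLC16A5, a member of the monocarboxylate transporter family, ARRB1, which encodes beta-arrestin 1, LMO7 and CAVIN2, a caveola component. Their distances were 0.12 to 0.15 log2 and their Pearson correlations with TIMP3 0.995 to 0.998 over 6 arrays, which fall into 2 groups and so share that split. Their own differences were 1.00, 1.02, 1.09, 0.95 and 1.09 log2 in that order.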

How the data were processed

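Data from 6 arrays were analysed. Per the submitters' processing notes the values were made with RMA, which corrects background, equalises arrays and summarises probes. The deposited log2 values had then been centred so that every probe set has a median of 0 (within 4.8e-07), with software that the labels do not name. The log base is not stated and was taken as 2. From 54675 rows, 62 control probe sets were set aside. GEO's platform annotation gave 1 symbol for 41091 of the others, several for 1801 and none for 11721, and symbols were updated by gene number. Gene values are means over probe sets of 1 symbol. limma 3.58.1 (R 4.3.3, lmFit and eBayes, tested on simulated data) compared 3 with 3 arrays, with Benjamini-Hochberg adjustment over all 54613 probe sets or 19775 genes. The number of arrays limits the precision.

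The members and 11 gene lists were chosen with earlier results of these data known. Of 126 list entries 120 were measured. The genes named are the members, HS3ST2, the synapsin genes and CEP295NL overlapping TIMPs, up to 4 called genes of smallest p per list, and the 5 closest to TIMP3. MMP10, MMP24, MMP25, TIMP4, FURIN, ADAM17, COL4A2, COL4A3 and COL4A6 fall outside this rule and are named after their values were seen. Alternatives tried were leaving out each array, the replicate number as a block, quantile or median normalization, array weights, robust eBayes, no _x_at or _s_at probe sets, a threshold of 0.01 and the probe set of largest SD. The SD was taken over the arrays of both groups together, so this last choice favours probe sets that differ between the groups.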

Additional observations from a re-analysis of the deposited data

How the results depend on the processing

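TIMP3 and TIMP2 kept their direction and their call under every alternative that gave a value. TIMP3 lay at 0.98 to 1.22 log2 and TIMP2 at -0.56 to -0.25. For TIMP2 every alternative kept 203167_at, its only called probe set, so its call was not tried without that probe set. TIMP3, MMP9 and MMP17 have no value once _x_at and _s_at probe sets are dropped. In that setting 1 of 7 member genes and 1 of 14 member probe sets was called, and 5163 probe sets in all. At an adjusted p under 0.01, 2840 genes and 4643 probe sets were called. When 1 array was left out, 3777 to 4020 genes, 6299 to 7050 probe sets, 2 to 3 member genes and 5 to 7 member probe sets were called. With the replicate number as a block, 4302 genes, 7705 probe sets, 2 member genes and 5 member probe sets were called. Same-numbered arrays deviated together with correlations of 0.15, 0.04 and -0.08, and 3 of 6 arrays correlated best with their own number. The labels do not say whether same-numbered arrays share more than that number, and so few arrays cannot settle it. Filters on dim probe sets need levels, which the centred values do not hold, and were not run.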
